A study of Mus musculus with 16 samples.

Results

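Cd274 encodes PD-L1, the surface ligand that binds PD-1 on T cells and restrains them. Its transcription is classically induced by IFN-γ through JAK and STAT proteins and IRF1. Cd38 encodes a surface enzyme that consumes NAD and produces ADP-ribose and cyclic ADP-ribose, and it is widely used as a marker of M1-like macrophages in mice. Both genes, and the annotated antisense gene AC119228.1 on the strand opposite to Cd274, were chosen by name from the gene rows of a count table. Of the 3 genes, 2 were found among the 48440 rows, and AC119228.1 was not analysed here. Cd274 and Cd38 were both among the 3453 rows with enough counts to be tested.

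The RNA came from bone marrow–derived macrophages (BMDMs), which are grown from marrow cells in M-CSF. The donors were female NOD.hALOX12 mice, 8 weeks old, in which the human 12-lipoxygenase gene ALOX12 stands in place of mouse Alox15, and all 4 groups shared this genotype. M1 VLX-1005 cells received 10 µM VLX-1005, an inhibitor of 12-lipoxygenase, and after 1 hour were stimulated for 18 hours with LPS at 10 ng/mL together with IFN-γ at 25 ng/mL. M1 vehicle cells received 0.1% DMSO and the same LPS and IFN-γ. M0 VLX-1005 and M0 vehicle cells were not polarized and received the inhibitor or DMSO. Each group had 4 libraries, and the sources used here do not state whether they were grown from different mice. The p-values therefore refer to library-to-library spread, which may be technical.

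Library totals were 939584 to 1158095 counts. The libraries were strand-specific, but 96.32% to 97.2% of each library's counts lay in the 17.46% of rows whose exons lie opposite to exons of another gene. Of the mitochondrial counts, 89.16% to 95.76% lay in the 9 of 37 mitochondrial rows that are on the light strand. No source used here gives the strand setting that the counting used. Whether the reads of a row came from its own strand or from the opposite one was not tested. Each value given for a gene is therefore that of its row. On the second principal component 3 of the 8 M0 libraries stood apart, M0 VLX-1005 3 (7.63), M0 vehicle 3 (8.29) and M0 vehicle 2 (4.07), where the remaining 5 ran from -5.85 to -2.2. All 10 macrophage markers examined had counts, and their summed level was 323 to 370 CPM (counts scaled to a common library size) in M1 VLX-1005, 305 to 362 in M1 vehicle, 819 to 887 in M0 VLX-1005 and 859 to 1000 CPM in M0 vehicle libraries. Cd163 carried the difference in this sum (19 counts in M1 VLX-1005, 13 in M1 vehicle, 2677 in M0 VLX-1005 and 2958 in M0 vehicle), and the other 9 markers summed to 316 to 365 CPM in M1 VLX-1005, 300 to 358 in M1 vehicle, 315 to 333 in M0 VLX-1005 and 311 to 382 CPM in M0 vehicle libraries. Adgre1 had more counts in M1 (161 in M1 VLX-1005 and 155 in M1 vehicle, against 92 in M0 VLX-1005 and 74 in M0 vehicle), and the rows of Cd68 and Fcgr1 stayed under 12 CPM in every library. Markers of T, B and NK cells and neutrophils summed to at most 4.38 CPM in any library and those of stromal cells to at most 3.75 CPM. Erythroid markers reached 8.09 CPM in M1 VLX-1005, 6.14 in M1 vehicle, 14.5 in M0 VLX-1005 and 11.2 CPM in M0 vehicle libraries. All of these erythroid counts lay in the Alas2 row, whose exons lie opposite to those of Apex2 and Mir3620. The globin rows Hbb-bs, Hbb-bt and Hba-a1 had 0 counts.

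Cd274 (ENSMUSG00000016496.7) lies on chromosome 19 of mm10, 29367455 to 29388095, plus strand, with 7 exons in GENCODE. AC119228.1 (29373417 to 29384471, minus strand) lies within the Cd274 gene body and shares 511 exon bases with 3 of its exons. Plgrkt, which encodes a plasminogen receptor, runs away from Cd274 on the minus strand, with 64 bases between its own start and the Cd274 start. RefSeq starts the Cd274 gene earlier, at 29362107, where it overlaps the GENCODE body of Plgrkt by 5284 bases. Cd38 (ENSMUSG00000029084.5) lies on chromosome 5, 43868553 to 43912375, plus strand. The antisense gene Gm16015 (43909215 to 43909885, minus strand) lies within the Cd38 body and shares 0 exon bases with it. Upstream lie Bst1, the Cd38 paralog that encodes CD157, and Fbxl5, which encodes an iron-sensing ubiquitin ligase subunit and shares 98 exon bases with Bst1 on the opposite strand.

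**Figure D1:**
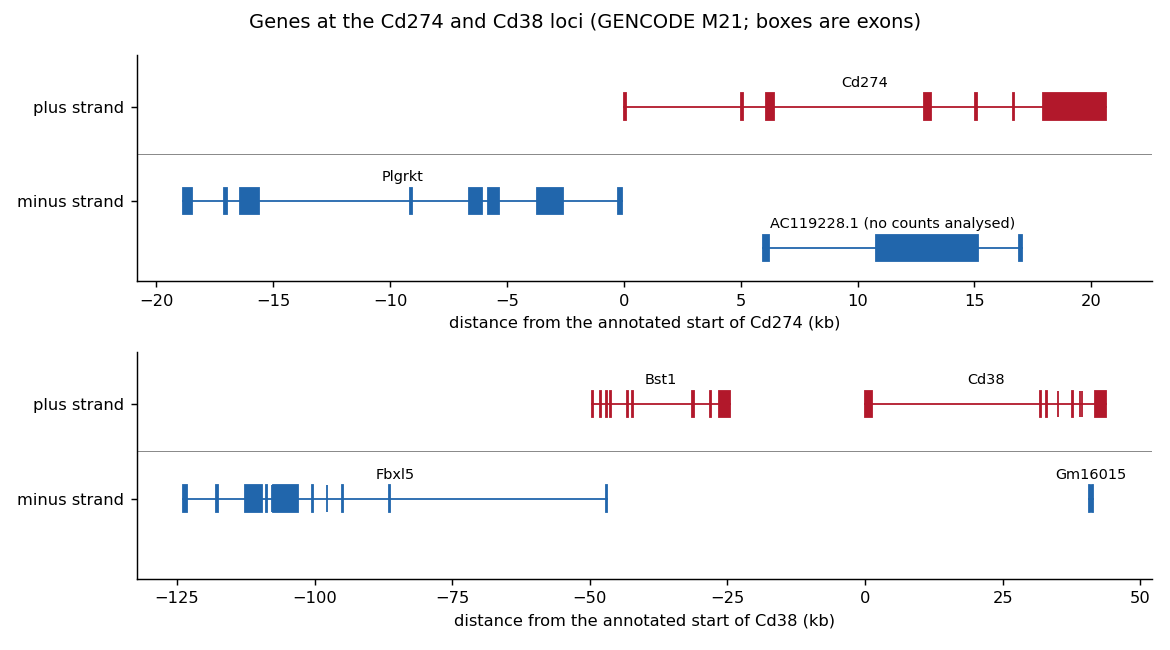
Map of both loci in GENCODE, with boxes for exons and lines for gene bodies. The horizontal axis is the distance in kb from the annotated start of Cd274 (top) or Cd38 (bottom), and plus-strand genes (red) stand above minus-strand genes (blue). The counts of AC119228.1, which crosses 3 Cd274 exons, were not analysed here.

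Both promoter windows held a single match to the core of the site bound by interferon regulatory factors (IRFs). The windows were RefSeq's 250 bases before to 50 after a start of each gene in GRCm38.p6, and the core was AANNGAAA on either strand. Each stretch below is 30 bases of the plus strand, 5′ to 3′, with the match in capitals, and is shown because both genes were read after IFN-γ. The Cd274 stretch is chr19:29367252-29367281, with the match on the minus strand at -175 from the start, and the Cd38 stretch is chr5:43868777-43868806, with the match on the plus strand at -21.
Cd274: ccgaagcctagTTTCGTTTtttcttaaact
Cd38: cagataaaagcAAGTGAAAaaaaggaggag
Such a match was found in 23.9% of 32851 promoters of this length, so it is common. The longer ISRE core (3.44% of promoters), the STAT site TTCNNNGAA (8.3%) and the NF-κB core (5.56%), also searched on both strands, had 0 matches in either window, which says only that these letters are not there. The motifs were chosen with the sequences in view. GENCODE starts Cd38 256 bases before RefSeq does, so the Cd38 stretch lies inside its first GENCODE exon. The Cd274 window belongs to a start close to the GENCODE one (29367455), not to the RefSeq gene start at 29362107. The Cd274 stretch lies inside the GENCODE body of Plgrkt.

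Cd274 counts were high in every M1 library and near 0 in every M0 library. M1 VLX-1005 libraries 1 to 4 had 130, 129, 100 and 102 Cd274 counts. M1 vehicle libraries had 107, 87, 133 and 91. M0 VLX-1005 libraries had 0, 0, 2 and 0 counts, and M0 vehicle libraries had 1, 2, 2 and 1. The M1 and M0 libraries did not overlap with either treatment. Fewer cells with reads of this row and fewer such reads per cell cannot be told apart in bulk RNA. As normalized levels, Cd274 averaged 135 ± 20.6 CPM in M1 VLX-1005, 122 ± 23.5 in M1 vehicle, 0.382 ± 0.764 in M0 VLX-1005 and 1.18 ± 0.434 CPM in M0 vehicle (SD, n = 4 each). In the order of these levels, the M1 groups overlapped each other (118 to 161 CPM in M1 VLX-1005 and 97.6 to 148 CPM in M1 vehicle), as did the M0 groups.

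Cd38 had the same order between states at a lower level. Its counts were 22, 21, 14 and 19 in M1 VLX-1005 libraries and 16, 21, 30 and 28 in M1 vehicle libraries. A single count, in replicate 1 of M0 VLX-1005, was found among the 8 M0 libraries. Cd38 averaged 22.3 ± 4.08 CPM in M1 VLX-1005, 27.3 ± 5.78 in M1 vehicle, 0.187 ± 0.374 in M0 VLX-1005 and 0 CPM in M0 vehicle (SD, n = 4 each). M1 vehicle had the highest mean of Cd38 and M1 VLX-1005 the highest mean of Cd274, and for both genes the ranges of the M1 groups overlapped. Per kb of exon, Cd274 stood at 37.3 CPM in M1 VLX-1005 and 33.6 in M1 vehicle, above Cd38 at 5.72 and 7.02 CPM per kb in these groups.

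**Figure D2:**
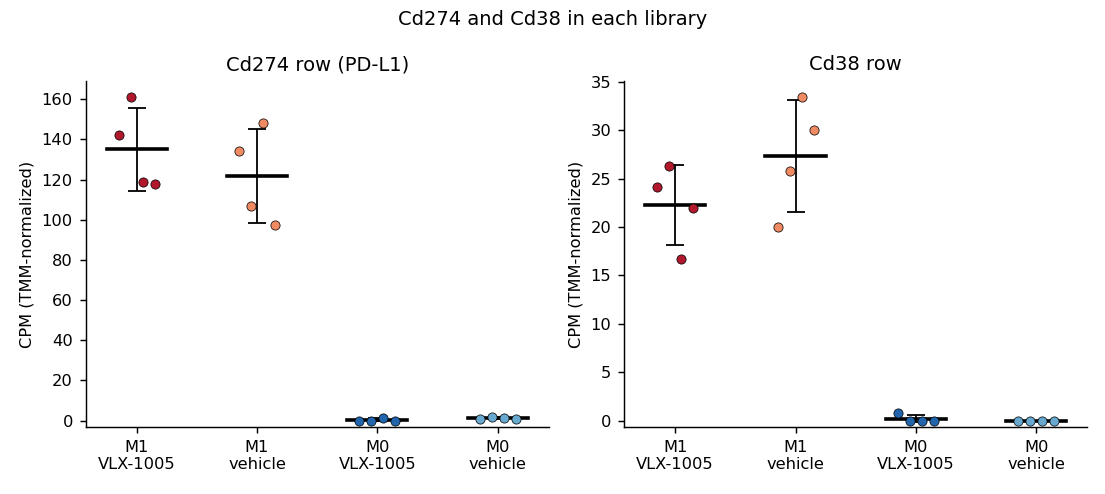
Levels of the Cd274 row (left) and the Cd38 row (right) in CPM, with a point per library (replicates 1 to 4 from left to right), a line at the mean and bars of 1 SD, in 4 libraries a group. All M1 libraries lie above all M0 libraries, and M1 VLX-1005 and M1 vehicle overlap in both plots.

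To ask what VLX-1005 did to these genes during polarization, M1 VLX-1005 was compared with M1 vehicle. Neither gene passed the test. The log2 fold change of Cd274 was 0.15 (SE 0.18, 95% interval -0.23 to 0.53, edgeR quasi-likelihood adjusted p = 0.998), an interval of 0.854-fold to 1.45-fold. Cd38 had a log2 fold change of -0.30 (SE 0.30, 95% interval -0.92 to 0.32, adjusted p = 0.998). By an exact two-sided permutation test of the CPM values of 4 against 4 libraries, p was 0.457 for Cd274 and 0.257 for Cd38, where the smallest possible p is 0.0286. With p adjusted over the 10 such tests of 5 rows, these were 0.653 and 0.571. Over all rows, edgeR called 0 of 3453 (0%) in this comparison, with 128 (3.71%) at an unadjusted p under 0.05, while DESeq2 (95 at that unadjusted p) and limma-voom (107) called 0 too. A rise of Cd274 of up to 1.45-fold stayed within its interval, so the result does not show that the levels were alike.

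In M0 cells the counts were too few to compare the treatments closely. M0 VLX-1005 had 2 Cd274 counts in all and M0 vehicle had 6, a ratio of normalized counts of 0.326 with a 95% counting interval of 0.0321 to 1.82. The edgeR adjusted p was 1. Both of the 2 counts came from M0 VLX-1005 3, and the 3 libraries that stood apart held 6 of the 8 M0 counts of Cd274. Their part in the difference was not tested. For Cd38, 1 count against 0 allows no fold. edgeR called 0 of 3453 rows (0%) between M0 VLX-1005 and M0 vehicle, with 103 (2.98%) at an unadjusted p under 0.05, and neither DESeq2 (74) nor limma-voom (115) called any.

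**Figure D3:**
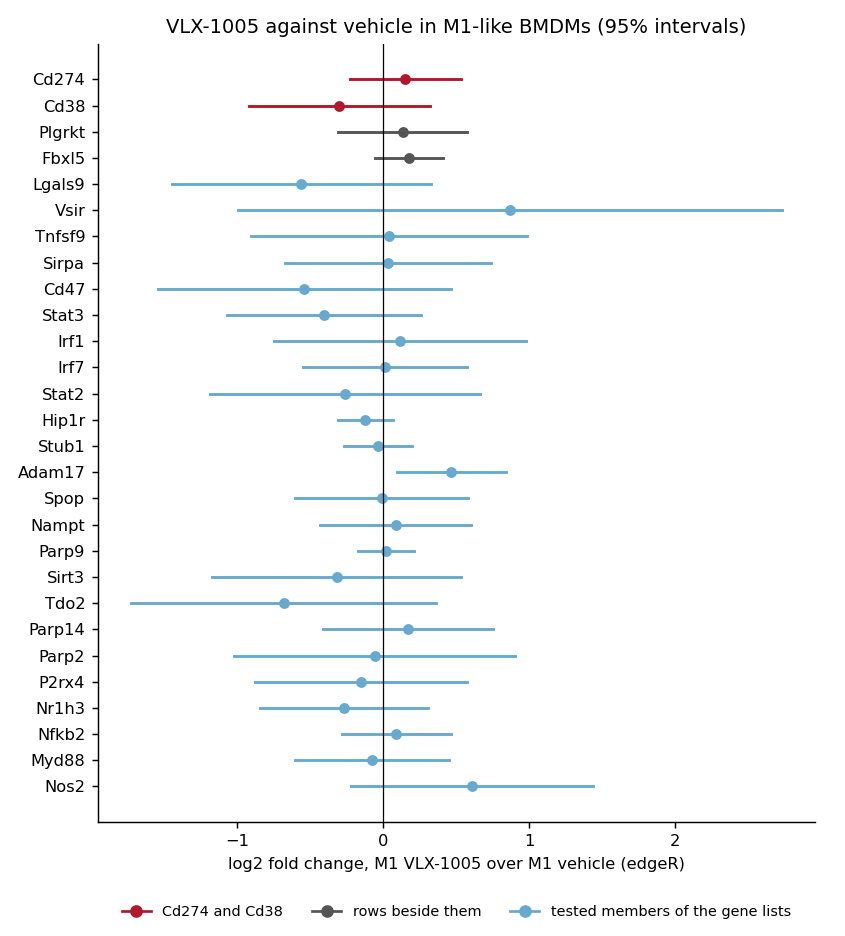
Log2 fold change of M1 VLX-1005 over M1 vehicle (horizontal axis) with 95% intervals from edgeR, for Cd274 and Cd38 (red), the rows beside them (gray) and the tested members of the gene lists (blue). The intervals of Cd274 (-0.23 to 0.53) and Cd38 (-0.92 to 0.32) both include 0, as do the others except that of Adam17 (0.10 to 0.84, adjusted p = 0.998).

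Both genes were higher in M1 than in M0 cells with either treatment. In M1 vehicle against M0 vehicle, Cd274 rose by 6.54 on the log2 scale (SE 0.55, 95% interval 5.39 to 7.69, edgeR adjusted p = 4.42e-14), and the ratio of summed normalized counts was 102 (95% counting interval 46.5 to 280). In M1 VLX-1005 against M0 VLX-1005 the log2 fold change was 8.07 (SE 0.93, adjusted p = 1.15e-14). That ratio, 348, rests on 2 counts, with a counting interval of 95.9 to 2890. Without M0 VLX-1005 3, M0 VLX-1005 had 0 Cd274 counts, and Cd274 was at least 173-fold higher in M1 VLX-1005 (a floor of 3 counts for the whole group). Leaving out all 3 libraries that stood apart, the fitted log2 fold change was 7.01 with vehicle.

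In M1 vehicle Cd38 was at least 46.4-fold higher than in M0 vehicle, where it had 0 counts (edgeR adjusted p = 2.02e-09). In M1 VLX-1005 it was 115 times its M0 VLX-1005 level (counting interval 20 to 4600, on 1 count, adjusted p = 1.18e-08). Without M0 VLX-1005 1, which held that count, the fold was at least 28.4. Both of the 2 genes were called higher. Of all tested rows, 65.3% were called with VLX-1005 (31.5% higher) and 66.5% with vehicle (31.7% higher). Both had passed the filter on low counts only through the M1 groups, so this count says nothing beyond their levels.

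The difference between the transitions was tested as an interaction, (M1 VLX-1005 minus M0 VLX-1005) minus (M1 vehicle minus M0 vehicle). For Cd274 it was 1.53 on the log2 scale (SE 1.08, 95% interval -0.71 to 3.76, unadjusted p = 0.106, edgeR adjusted p = 1). It carries the few M0 counts of that row. For Cd38 the unadjusted p was 0.209 and the edgeR adjusted p was 1. Over all rows 0 of 3453 (0%) were called by edgeR, with 148 (4.29%) at an unadjusted p under 0.05, and neither DESeq2 (107) nor limma-voom (133) called any.

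Among the 8 M1 libraries, Cd274 and Cd38 showed no clear relation. Pearson's r of their log2 CPM was 0.08 (exact permutation p = 0.85) and Spearman's rho was 0.14 (exact permutation p = 0.752). This was the single pair computed, so no adjustment applied. Without the 2 libraries farthest from the Cd274 median, r was 0.40 over 6 libraries.

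The minus-strand row beside Cd274 had nearly the same profile. Plgrkt had 100, 94, 96 and 102 counts in M1 VLX-1005 libraries and 64, 82, 108 and 109 in M1 vehicle libraries, against 0, 0, 1 and 1 in M0 VLX-1005 and 2, 0, 6 and 1 in M0 vehicle libraries. As with Cd274, no M0 library came near an M1 library. Its log2 fold change was 5.79 in M1 vehicle over M0 vehicle (SE 0.51, adjusted p = 1.58e-12) and 7.83 in M1 VLX-1005 over M0 VLX-1005 (SE 1.02). The M1 vehicle over M0 vehicle ratio of summed normalized counts was 59.1, and 131 without M0 vehicle 3, which held 6 of the 9 counts. Per kb of exon, Plgrkt stood at 30.2 CPM in M1 VLX-1005 and 27.5 in M1 vehicle. Of the counts in both rows, Cd274 took 54.0% in M1 VLX-1005 (exact binomial 95% interval 50.6 to 57.4, counting error only) and 53.5% in M1 vehicle. Single M1 vehicle libraries ran from 45.5% to 62.6%, a range that held all M1 VLX-1005 libraries. VLX-1005 against vehicle in M1 gave Plgrkt a log2 fold change of 0.13 (SE 0.21), and in M0 -1.91 (unadjusted p = 0.0367, adjusted p = 1).

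At the Cd38 locus the rows of both strands were again higher in M1 cells. Gm16015, inside the Cd38 body, had 3, 2, 2 and 9 counts in M1 VLX-1005 libraries and 3, 10, 5 and 16 in M1 vehicle libraries, against 0 in all M0 libraries. It was at least 8.06-fold higher in M1 VLX-1005 than M0 VLX-1005 and at least 16.6-fold higher in M1 vehicle than M0 vehicle, though its counts were too few for the test across rows. The M1 VLX-1005 over M1 vehicle ratio was 0.474 (counting interval 0.244 to 0.883). The libraries overlapped, and the exact permutation p was 0.171 (0.571 adjusted over the 10 tests). Without M1 VLX-1005 4, which held 9 of the 16 counts of its group, the ratio was 0.278 and the fold over M0 VLX-1005 at least 4.72. Per kb of exon, the Gm16015 level was 11.9 CPM in M1 VLX-1005 and 24.8 in M1 vehicle, above that of Cd38.

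Within 250 kb of Cd274 lay 11 other rows, of which 9 had counts and Plgrkt alone was tested, and within 250 kb of Cd38 lay 23, of which 7 had counts and Fbxl5 alone was tested. Fbxl5 was the most counted row near Cd38. It had 273 to 339 counts in M1 VLX-1005 libraries (median 286.5) and 234 to 283 in M1 vehicle libraries (median 271), against 18 to 26 in M0 VLX-1005 (median 24.5) and 21 to 25 in M0 vehicle libraries (median 22.5). Its log2 fold change was 4.09 in M1 vehicle over M0 vehicle (SE 0.16) and 4.26 in M1 VLX-1005 over M0 VLX-1005 (SE 0.16). Bst1, which shares exon bases with Fbxl5, had 6 counts in M1 VLX-1005, 10 in M1 vehicle and 0 in both M0 groups. Further out on chromosome 19, Jak2, the kinase of the IFN-γ receptor, had 35 counts in M1 VLX-1005 and 25 in M1 vehicle, against 0 in M0 VLX-1005 and 1 in M0 vehicle. Pdcd1lg2, which encodes the other PD-1 ligand PD-L2, had 3 counts in M1 VLX-1005, 2 in M1 vehicle and 0 in both M0 groups, all at or under the floor.

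**Figure D4:**
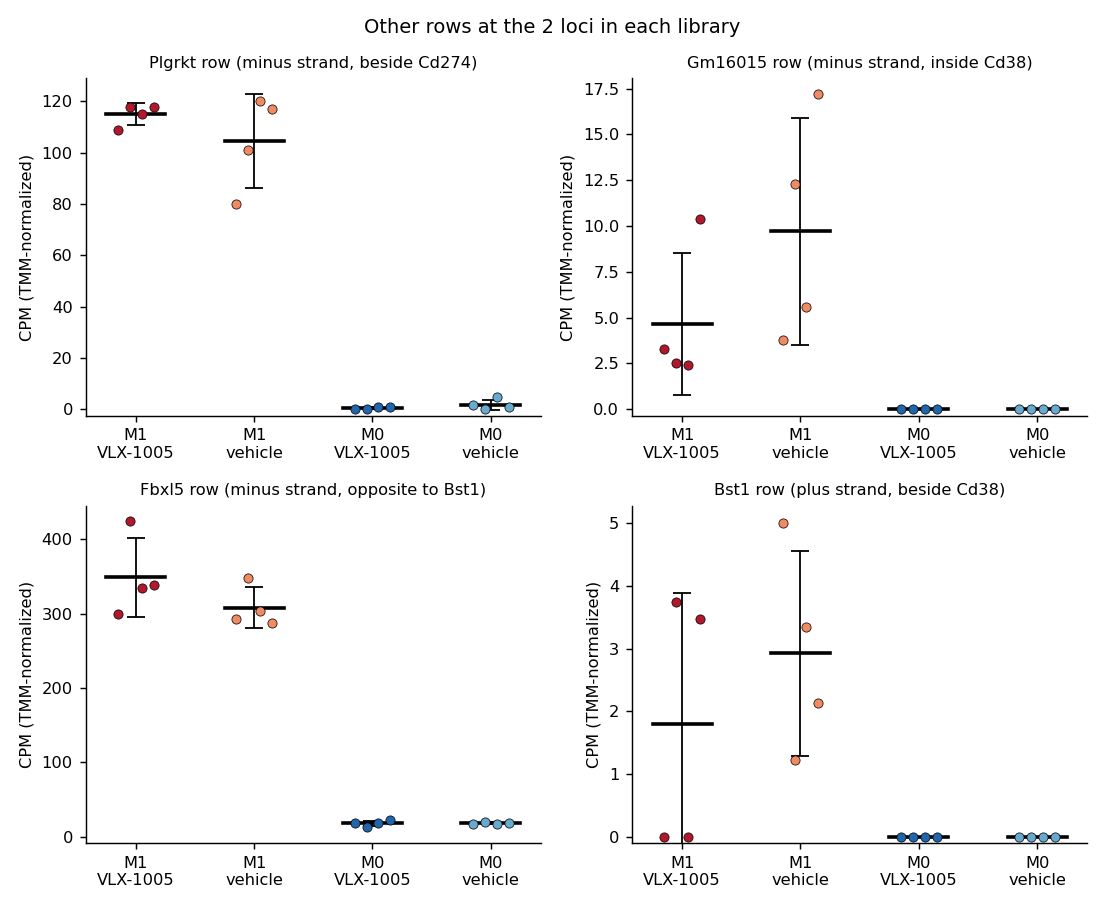
Levels in CPM of 4 rows around Cd274 and Cd38, with a point per library (replicates 1 to 4 from left to right), a line at the mean and bars of 1 SD, in 4 libraries a group. Plgrkt reaches 109 to 118 CPM in M1 VLX-1005 and 80.1 to 120 CPM in M1 vehicle, and each row is higher in M1 groups than in M0 groups.

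The lists of related genes below are described by their tested members, which are not all members. A gene with few counts in M0 could pass the filter on low counts only through the M1 groups and so could hardly be called other than higher. A gene that passed only through M0 could likewise hardly be called other than lower. Of the 3453 rows tested, 335 (9.7%) had passed only through M1 and 676 only through M0. The counts for each list are given as a description, to be read beside the 66.5% of all rows called with vehicle (31.7% higher, 34.8% lower) and the 65.3% called with VLX-1005 (31.5% higher, 33.8% lower).

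Checkpoint genes included rows called in both directions. Of 31 such genes, 29 had a row, 19 had counts and 6 were tested, and with vehicle 4 rose in M1 (Cd274 among them), 1 fell and 1 did not pass. All 4 that rose (Cd274, Lgals9, Cd47 and Tnfsf9) had passed the filter only through M1. The median log2 fold change of the 6 was 1.80, beside -0.10 over all rows tested. Lgals9, which encodes the TIM-3 ligand galectin-9, rose by 3.32 (SE 0.64) in M1 vehicle over M0 vehicle. Cd47, whose product signals to phagocytes not to engulf the cell, rose by 2.21 (SE 0.58). Tnfsf9, the 4-1BB ligand gene, rose by 1.40 (SE 0.51, its exons opposite to those of Gm11110). Vsir, which encodes the T cell checkpoint VISTA, fell by 2.76 (SE 0.78), but had passed the filter only through M0. Sirpa, the receptor for CD47, had -0.08 (edgeR adjusted p = 0.846). With VLX-1005 the split was again 4, 1 and 1, with a median of 2.11 beside -0.08 over all rows tested. Cd86, a costimulatory ligand gene too thinly counted to test, had 40 counts in M1 VLX-1005 and 28 in M1 vehicle, against 3 in M0 VLX-1005 and 1 in M0 vehicle.

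Few genes of the IFN-γ signaling that leads to Cd274 could be tested. Of 18 genes, all with counts, 4 were tested and all 4 rose with vehicle, with a median log2 fold change of 2.14, but 3 of them (Stat2, Irf1 and Irf7) had passed the filter only through M1. The transcription factor genes Stat2, Irf7 and Irf1 had log2 fold changes of 4.36 (SE 0.93), 2.27 (SE 0.32) and 2.02 (SE 0.51) in M1 vehicle over M0 vehicle, and Stat3 had 1.12 (SE 0.33). The Irf7, Irf1 and Stat3 rows share exon bases with Phrf1, Gm17334 and Stat5a on the opposite strand. With VLX-1005, 3 rose and Stat3 did not pass (0.08, adjusted p = 0.833). Socs3, a feedback inhibitor gene with too few counts to test, had 16 counts in M1 VLX-1005, 15 in M1 vehicle and 0 in M0 cells.

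The tested genes whose products handle the PD-L1 protein passed the filter through M1 and M0 alike. Of 16, 4 were tested, and 2 rose and 2 fell with each treatment, a split near that of all rows, with medians of 0.41 with VLX-1005 and 0.33 with vehicle. Hip1r, which targets PD-L1 to lysosomes, rose by 1.69 (SE 0.09) and Spop, a ubiquitin ligase adaptor, by 1.39 (SE 0.31) in M1 vehicle over M0 vehicle. Adam17, a protease that sheds surface proteins, fell by 1.10 (SE 0.17) and Stub1, a ubiquitin ligase, fell by 0.72 (SE 0.11). The Hip1r, Adam17 and Stub1 rows lie opposite to exons of Vps37b, Iah1 and Jmjd8.

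Tested NAD genes were called in both directions. Of 33 genes of NAD metabolism, 29 had counts and 7 were tested, and with vehicle 4 rose in M1 (Cd38 among them), 1 fell and 2 did not pass, with a median of 2.78 that was the same with Cd38 at its bound. Cd38, Nampt and Parp14 had passed the filter only through M1, and Sirt3, Tdo2 and Parp2 only through M0. Nampt, the rate-limiting enzyme gene of NAD salvage, rose by 2.93 (SE 0.34), with averages of 34.5 CPM in M1 VLX-1005 and 32.5 CPM in M1 vehicle against 3.89 CPM in M0 VLX-1005 and 4.19 CPM in M0 vehicle. Parp9 and Parp14, which belong to the ADP-ribosyltransferase family, rose by 2.93 (SE 0.10, opposite to Dtx3l) and 2.78 (SE 0.36). Sirt3, a mitochondrial NAD-dependent deacetylase, fell by 0.90 (SE 0.35, opposite to Ric8a and Psmd13), while Parp2 (-0.85, adjusted p = 0.0587) and Tdo2 (-0.05, adjusted p = 0.926) did not pass. With VLX-1005, 4 rose, 2 fell (Sirt3 and Tdo2) and 1 did not pass, with a median of 2.83.

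The other lists had 1 to 3 tested genes. P2rx4, an ATP-gated channel gene and the sole tested member of 15 genes of extracellular nucleotides and adenosine, rose by 2.47 (SE 0.43) with vehicle and had passed the filter only through M1. Of 15 regulators of Cd38 transcription, 3 were tested and all 3 rose, with medians of 1.63 with VLX-1005 and 1.50 with vehicle, and Nr1h3 had passed the filter only through M1. They were Nr1h3 (LXRα, 4.09, SE 0.45, with vehicle), Myd88 (1.50, SE 0.27, opposite to Acaa1a) and Nfkb2 (1.27, SE 0.19, opposite to AC114539.1 and Psd). Of 11 genes that distinguish M1 from M2 macrophages, Cd38 and the nitric oxide synthase gene Nos2 were tested, and both rose, which the filter fixed, since both had passed it only through M1. Nos2 had 52 counts in M1 VLX-1005 and 34 in M1 vehicle and 0 in both M0 groups, so it was at least 26.2-fold higher with VLX-1005 and at least 16.6-fold higher with vehicle. With genes at 0 set to their bounds, the medians of this list were 5.44 with VLX-1005 and 4.80 with vehicle, where the fitted medians were 6.60 with VLX-1005 and 7.15 with vehicle. The M2 marker Mrc1 had 0 counts in both M1 groups, 21 in M0 VLX-1005 and 17 in M0 vehicle. No tested member of the 7 lists passed in M1 VLX-1005 against M1 vehicle or in M0 VLX-1005 against M0 vehicle, where 0% of all rows did.

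**Figure D5:**
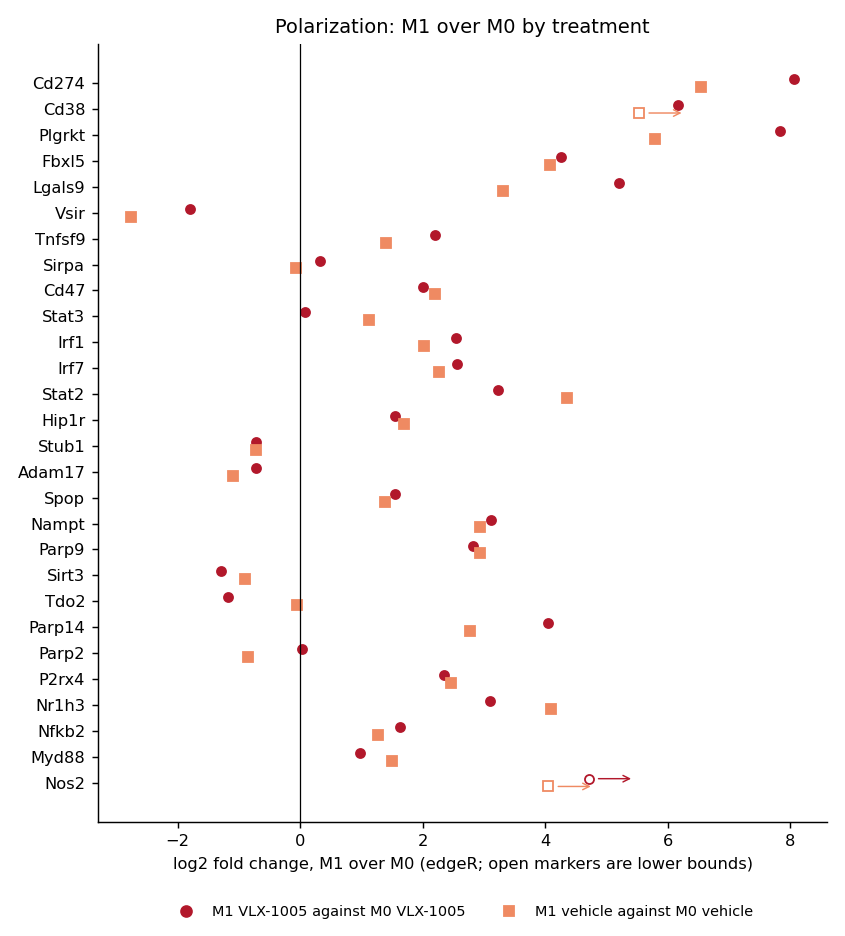
Log2 fold change of M1 over M0 (horizontal axis) for Cd274, Cd38, the rows beside them and the tested members of the gene lists, with VLX-1005 (red circles) and with vehicle (orange squares). Open markers with arrows are lower bounds where the M0 group had 0 counts, and Cd274 stands at 8.07 with VLX-1005 and 6.54 with vehicle.

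The rows most like Cd274 over the 16 libraries were found by the root mean square (RMS) difference of log2 CPM, each centered on the row's mean. Gm37787, whose exons lie opposite to those of the leukocyte receptor gene Slamf7, had the smallest difference (0.338). It averaged 3050 CPM in M1 VLX-1005 and 3070 in M1 vehicle, against 46.1 in M0 VLX-1005 and 62.1 CPM in M0 vehicle. Gm11216 (0.392), Gm20481 (0.412, opposite to the heat shock gene Hspa1a), Fyco1 (0.413) and Bcl2l14 (0.424) followed, and Plgrkt was at rank 7 (0.445). Cd38 was at rank 82 in this order, with an RMS difference of 1.038.

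The rows most like Cd38 were Gm12868 (0.225, opposite to the glucose transporter gene Slc2a1), 6530409C15Rik (0.252, opposite to Zfp800), Vgf (0.255), Gm15821 (0.256, opposite to the peptide transporter gene Tap2) and Gm10558 (0.264, opposite to Map2). Gm10558 averaged 21.6 CPM in M1 VLX-1005 and 26.6 in M1 vehicle and had 0 counts in both M0 groups, as Cd38 nearly did. Cd274 was at rank 346 by its likeness to Cd38. These differences describe profiles at a prior count of 2, which holds down the changes of rows with few counts.

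Among markers of other cell types, the Xcr1 row moved with Cd274 and Cd38. Summed dendritic cell markers were 167 to 229 CPM in M1 VLX-1005 and 178 to 261 in M1 vehicle libraries, against 3.4 to 5.95 in M0 VLX-1005 and 6.38 to 9.13 CPM in M0 vehicle libraries. Of the 6 markers, 3 had counts and the Xcr1 row carried nearly all of the M1 signal (689 counts in M1 VLX-1005 and 728 in M1 vehicle). Clec9a went the other way, with 0 counts in M1 VLX-1005 and 5 in M1 vehicle, against 19 in M0 VLX-1005 and 24 in M0 vehicle. Flt3, Zbtb46 and Siglech, which define dendritic cells, had 0 counts in all 16 libraries, and the part of Xcr1 in the results was not tested.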

How the data were processed

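RNA of 16 BMDM libraries was compared in 4 groups of 4, named by the labels. The authors trimmed reads with Trimmomatic, aligned to mm10 with HISAT2 and used HTSeq-count for gene counts, and the deposited values were these raw counts, neither normalized nor filtered. Tool versions, annotation release and strandedness of the counting are not given in those sources. Of 48440 rows, 48058 matched GENCODE mouse release 21 by identifier without version, and 30671 had no count. AC119228.1 was not analysed here, so its planned tests (its share with Cd274, their sum, its correlations) were not run. Promoters were RefSeq's (GRCm38.p6).

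Rows passing filterByExpr were TMM-normalized and tested in 1 model of all libraries by edgeR 4.0.16 quasi-likelihood (R 4.3.3), with Benjamini-Hochberg adjustment over 3453 rows and a threshold of 0.05. SEs are Wald errors of that fit. TMM-scaled library sizes gave CPM and count ratios, and a group at 0 counts was set to 3 counts. Intervals are 95%. Counting intervals and floors cover counting error only. Replicates differed beyond sampling noise (chi-square divided by its degrees of freedom, 2.43 to 6.6). Library totals (median 1078303.5) limit precision for rows of few counts.

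Alternatives were DESeq2 1.42.0, limma-voom 3.58.1, RLE and upper quartile normalization, every row with a count, rows averaging at least 50 counts, separate fits of each pair of groups, a replicate block, prior counts of 10 and 0.5, and omission of each library. Omission of the 3 M0 libraries that stood apart, the permutation tests, the share of counts between neighboring rows, the state through which a row passed the filter, the macrophage sum without Cd163 and the analysis of Plgrkt, Fbxl5 and Gm16015 were chosen after seeing the data. Cd274, AC119228.1, Cd38 and the gene lists were chosen with earlier results of these data known. Named genes were those 3, up to 3 list members each way that passed with vehicle or had the highest CPM, genes within 250 kb, rows opposite to their exons and the 5 rows of most similar profile. Cd86, Socs3 and Mrc1 were named after their values were seen.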

Additional observations from a re-analysis of the deposited data

Results flagged for a closer look

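In 5 rows (Cd274, Cd38, Plgrkt, Fbxl5 and Gm16015) and 20 groups of 4 libraries examined, 3 groups had a library far from the other 3. Chance gives about 1 in 20 for varying values, but a lone library with counts among libraries at 0 always stands apart, as in 2 of these 3 groups. M0 VLX-1005 3 had 1.53 CPM of Cd274, from 2 counts, and the other 3 M0 VLX-1005 libraries had 0. M0 VLX-1005 1 had 0.749 CPM of Cd38, from 1 count, and the others had 0. M1 VLX-1005 4 had 10.4 CPM of Gm16015, from 9 counts, against 2 or 3 counts in the other libraries of its group.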

How the results depend on the processing

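Cd274 and Cd38 kept their direction and their side of the threshold in every alternative that gave them a value, except that the fitted change of Cd38 in M0 VLX-1005 over M0 vehicle was 0 without M0 VLX-1005 1. Leaving out each library in turn, the log2 fold change of M1 VLX-1005 over M1 vehicle ran from 0.06 to 0.26 for Cd274 and from -0.42 to -0.19 for Cd38, and that of M1 vehicle over M0 vehicle from 6.40 to 6.70 for Cd274. Fitted fold changes against M0 depend on the prior count: with 10 in place of the default Cd274 had 3.89 with VLX-1005 and 3.63 with vehicle, and Cd38 had 1.73 with VLX-1005 and 1.97 with vehicle. With the replicate number as a block, the M1 VLX-1005 over M1 vehicle values were 0.16 for Cd274 and -0.30 for Cd38, and no call of either changed. Same-numbered libraries correlated at -0.073 to 0.46 (mean 0.044, against -0.015 for other pairs, with 2 of 24 pairs over 0.1), and 9 of 16 libraries correlated best with their own number. No label says what a number marks, so the libraries were not treated as paired, and whether they shared a mouse or a day was not tested.

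Over all rows, the count called in M0 VLX-1005 against M0 vehicle was 1 with no low-count filter (CT010467.1, named after its values were seen). When rows had to average 50 counts or more, which left 1678 rows, 1262 were called in M1 VLX-1005 against M0 VLX-1005 and 1277 in M1 vehicle against M0 vehicle, where the default filter gave 2254 with VLX-1005 and 2295 with vehicle. The count of called list members also moved with how many could be tested. When no row was filtered out, 18 genes of the IFN-γ list were tested, and 8 were called with VLX-1005 and 9 with vehicle. Of all 17769 rows in that setting, 2692 were called with VLX-1005 and 2763 with vehicle. At an average of 50 counts or more, 0 genes of the IFN-γ list were tested, and Cd38 had no value. In M0-only fits neither gene was tested. With few counts in M0, a difference of Cd274 or Cd38 between M0 groups was not detectable at this depth. The summed Cd274 and AC119228.1 rows were not run.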
